A study of Homo sapiens with 13 samples.

Results

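The forkhead box (FOX) transcription factors were followed through BMP4 treatment of human embryonic stem cells. They were taken as every gene whose symbol is FOX, a letter from A to S, a number and an optional A or B, and which carries a human Ensembl identifier. This gave 47 genes of the 61541 human features in the count tables. The rule itself uses no measured value, but it was set with earlier results of these data known. The genes of the FOXD4L group have symbols of another form and were not members.

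FOX proteins bind DNA through a winged helix domain, the forkhead box. Several of them open closed chromatin ahead of other factors, and different members mark different tissues. FOXA proteins act in endoderm, FOXC and FOXF proteins in mesoderm and mesenchyme, FOXI proteins in surface ectoderm and placodes, FOXD3 in pluripotent cells and neural crest, and FOXJ1 in cells with motile cilia. FOXH1 carries Nodal signals by binding SMAD proteins on DNA, FOXO proteins are held out of the nucleus by AKT, and FOXM1 drives genes of cell division.

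The cells were RUES2 human embryonic stem cells in which SMAD4, the SMAD shared by BMP and Nodal signals, is fused to GFP at its own locus, and all libraries came from this fusion line. In a time series, cells in mTeSR1 with ROCK inhibitor (RI) were given BMP4 (100 ng/mL) together with IWP2 (5 µM), a blocker of Wnt secretion, and 1 bulk RNA library was made at each of 4, 12, 20, 28 and 42 h and 2 at 0 h. The labels give the 0 h libraries the same treatment, and they were read as cells collected at its start. In a dose response at 5 h, the same BMP4, IWP2 and RI were combined with the BMP receptor inhibitor LDN-193189 (LDN) at 0, 10, 30, 100 or 300 nM, and 1 further library came from cells in mTeSR without BMP4, IWP2 or LDN, called untreated here. The time series was made by rRNA depletion and the dose response by polyA selection, with different RNA kits, so that no level was compared between them. The only replicates were those at 0 h, and nothing in the labels says whether these were separate cultures, so that the spread may be technical.

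The libraries held 37956244 to 71331540 counts in the time series and 15600645 (untreated) to 33989489 in the dose response. All levels below are CPM (human counts scaled to a common library total) after TMM scaling within each experiment, unless given as FPKM, the level per transcript length. A limit of 3 counts corresponded to 0.041 to 0.0777 CPM in the time series and to 0.0874 to 0.201 CPM in the dose response, for counting error only. The 0 h replicates differed by an SD of 0.379 in log2 over 15976 genes, and of the 26 forkhead genes tested FOXF2 alone, with 1 and 6 counts, differed between them by more than 2-fold in CPM. Mitochondrial genes took 7.60% and 4.29% of counts at 0 h, 2.01% to 4.24% later, and 7.90% without treatment against 4.22% to 4.49% with BMP4 at 5 h, and the part of this in the results was not tested. The summed level of 7 pluripotency markers fell from 4889 and 5312 CPM at 0 h to 2195 CPM at 42 h, while that of 9 amnion markers went from 26.2 and 29.0 CPM to 7668 CPM. In bulk RNA, fewer cells of a type and less RNA per cell cannot be told apart.

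All 47 genes had counts in at least 1 library. In the human annotation (GENCODE 44, GRCh38) 46 of them are protein coding and 1, FOXO1B, is a processed pseudogene, 13 have a single exon, and 16 share exonic bases with another gene. A mean of at least 1 CPM was reached by 26 of them in the time series and 23 in the dose response, and these were tested. The other 21 were tested in neither, and 7 of those never reached 10 counts in any library.

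The family was dominated by a few genes in every library. Per length, 5 genes held 58.8% to 65.1% of the summed FPKM of all 47. At 0 h the highest was FOXH1 with a mean of 85.0 FPKM, followed by FOXN3 with 70.3 FPKM, FOXM1 with 69.3 FPKM, FOXK2 with 38.0 FPKM and FOXJ3 with 32.0 FPKM. FOXI3, which acts in placode and pharyngeal development, ranked 15 at 0 h and was the highest of the family at 12, 20 and 28 h, where it held 16.6%, 22.2% and 20.6% of the summed FPKM against 1.62% and 1.68% at 0 h. At 42 h the order was led by FOXM1 with 72.4 FPKM, FOXO4 with 63.9 FPKM and FOXK2 with 55.4 FPKM, and FOXH1 had gone to rank 12 with 12.0 FPKM. FOXF2 moved from rank 40 to rank 11 and FOXD3 from rank 6 to rank 28. These are descriptions of levels with no test, and neighbours in the order at 42 h rest on 1 library.

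**Figure D1:**
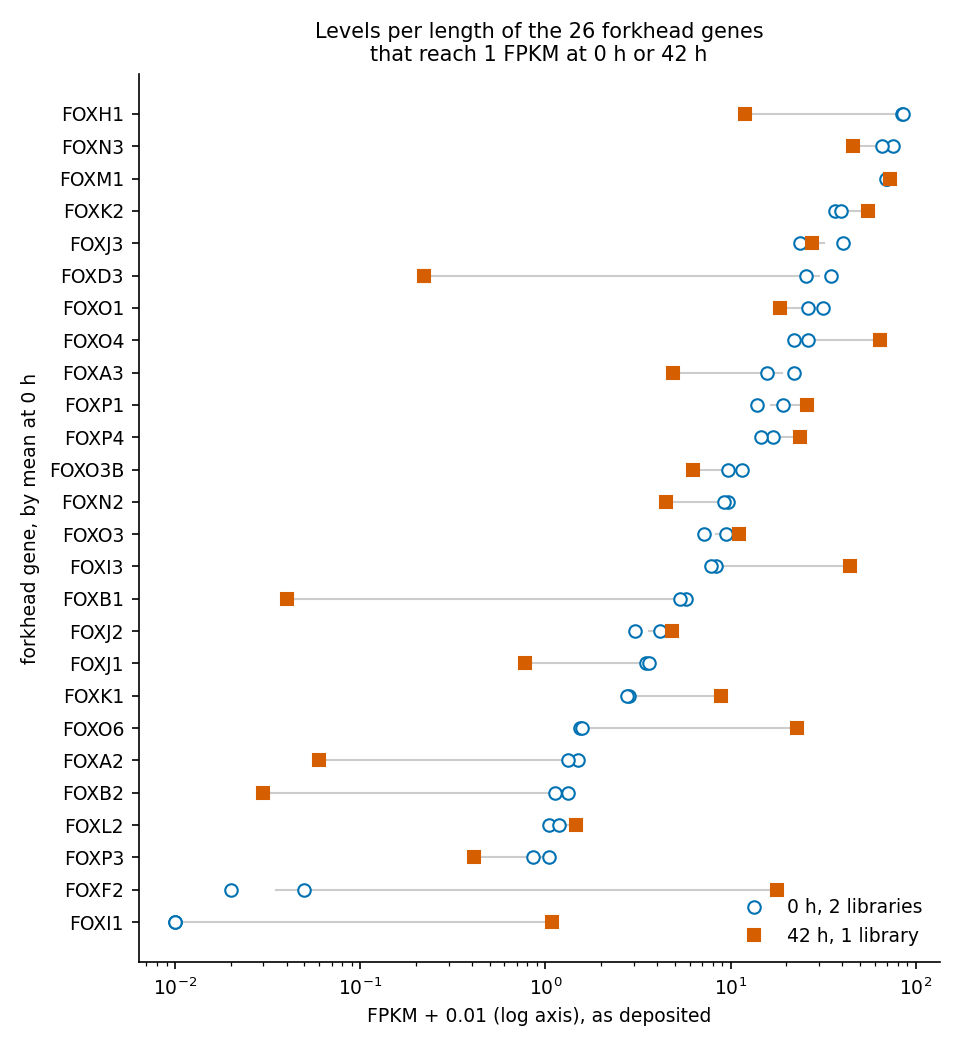
FPKM as deposited, plus 0.01, on a log axis for the 26 forkhead genes that reach 1 FPKM at 0 h or 42 h; open circles are the 2 libraries at 0 h, squares the library at 42 h, and lines join the mean at 0 h to 42 h. FOXH1 leads at 0 h with a mean of 85.0 FPKM and stands at 12.0 FPKM at 42 h, while FOXF2 stands at 17.8 FPKM at 42 h.

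Which members changed with time was asked first. At 4 h FOXI3, FOXF2, FOXO6, FOXC1, FOXI2 and FOXD1 had risen and FOXB1, FOXJ1, FOXD3 and FOXL2 had fallen. Of the 26 tested, 6 rose and 4 fell at 4 h, where 4.39% and 0.632% of all 15976 genes tested did. By 12 h again 6 had risen and 4 had fallen (7.04% and 2.64% of all genes). The 20 h library called 7 that rose and 4 that fell (12.4% and 6.01%) and the 28 h library 7 and 3 (13.3% and 7.04%). The largest numbers were those of 42 h, with 12 that rose and 7 that fell (19.9% and 17.8%). A line over all 7 libraries called 7 that rose and 6 that fell, with 19.2% and 17.5% of all genes called. Its coefficient, the fitted log2 change from 0 to 42 h, had a median of 0.45 over the 26 and of -0.005 over all genes. Of the 26, 10 had their highest level at 42 h, 7 in a library at 0 h and 4 at 20 h, and the same count was not made over all genes. In each comparison with 0 h the spread came from the 2 libraries at 0 h. It was drawn toward a value shared across genes, so it is not each gene's own spread alone. The single library at each later time was assumed to vary like those at 0 h.

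**Figure D2:**
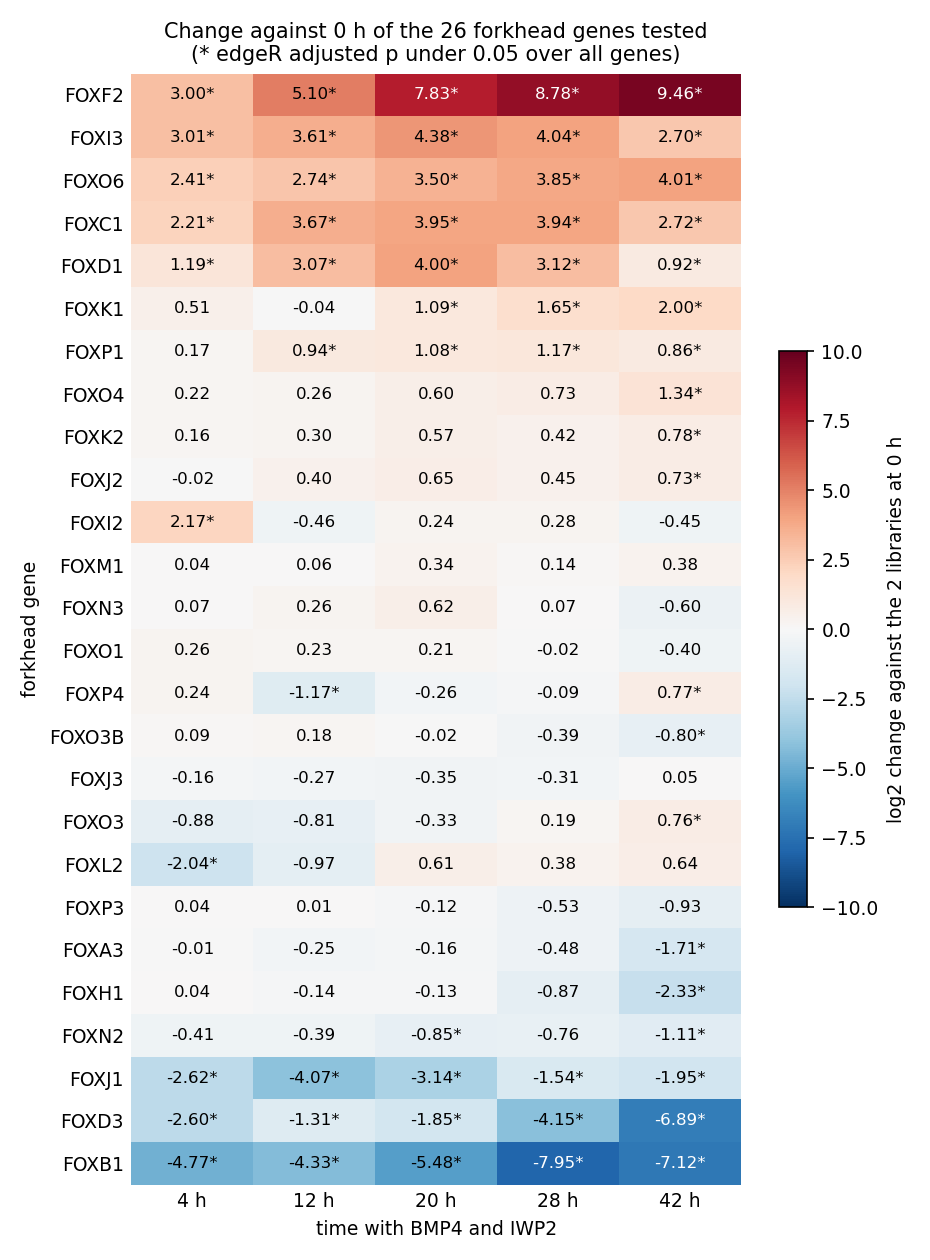
Log2 change of the 26 tested forkhead genes at 4, 12, 20, 28 and 42 h against the 2 libraries at 0 h, from 1 edgeR fit; red is higher, blue is lower, and a star marks an adjusted p under 0.05 over all genes. FOXF2 reaches 9.46 and FOXB1 -7.95, and 19 of the 26 rows have a star at 42 h.

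FOXI3 gave the highest counts of the induced members. FOXI3 (ENSG00000214336) lies on the minus strand at chr2:88446787-88452693 and has 2 exons. Its level was 21.0 and 19.4 CPM at 0 h and then 163, 247, 422, 333 and 132 CPM at 4, 12, 20, 28 and 42 h. Each later library lay above both 0 h libraries, the highest at 20 h. The log2 change was 3.01 ± 0.33 (SE) at 4 h (edgeR quasi-likelihood test, adjusted p = 8.68e-18), 4.38 ± 0.34 at 20 h (adjusted p = 3.46e-36) and 2.7 ± 0.33 at 42 h (adjusted p = 2.14e-15). The FOXI3 level at 20 h was 3.20 times that at 42 h, with an exact 95% interval of 3.12 to 3.29 that covers counting error only. The line in time did not call FOXI3, whose level was highest in the middle of the series. The 7 listed markers of placode and surface ectoderm summed to 293 and 379 CPM at 0 h, 839 CPM at 20 h and 3194 CPM at 42 h. Most of this sum was KRT18, which amnion cells also express (245 and 337 CPM at 0 h, 3055 CPM at 42 h). The placode cofactor EYA2 went from 1.87 and 1.88 CPM to 18.4 CPM. At 42 h DLX3 and DLX5 of this list were also higher, whereas SIX4, with a mean of 39.7 CPM at 0 h, was lower. The part of these markers in the FOXI3 result was not tested.

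FOXD1 and FOXC1, factors of stromal mesenchyme and of mesoderm, had the same shape at lower levels. FOXD1 stood at 1.01 and 1.41 CPM at 0 h, then at 2.81, 10.4, 19.6, 10.7 and 2.32 CPM at 4, 12, 20, 28 and 42 h. Its log2 change was 4.00 ± 0.34 at 20 h (adjusted p = 4.25e-29), against 1.19 ± 0.36 at 4 h (adjusted p = 0.0218) and 0.92 ± 0.37 at 42 h (adjusted p = 0.0346). FOXD1 at 20 h was thus 8.45 times its level at 42 h (7.02 to 10.3, counting error only), and the calls at 4 h and 42 h were lost with DESeq2. FOXC1 had 6 and 10 counts at 0 h and 33, 109, 136, 129 and 51 counts at the 5 later times, or went from 0.16 and 0.14 CPM to 2.25 CPM at 20 h. The log2 change of FOXC1 was 3.95 ± 0.54 at 20 h (adjusted p = 9.03e-12) and 2.21 ± 0.61 at 4 h (adjusted p = 0.00723), the latter with adjusted p = 0.358 in DESeq2. FOXC1 and FOXF2 passed the filter on low values only through the libraries in which they were high.

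FOXF2 and FOXO6 rose to the end of the series. FOXF2, a factor of visceral mesenchyme with 2 exons at chr6:1389576-1395603 on the plus strand, had 0.03 and 0.08 CPM at 0 h. It then reached 0.51, 2.20, 14.6, 28.1 and 45.0 CPM at the later times. Each FOXF2 library thus lay above the one before, and the log2 change was 3.0 ± 0.62 at 4 h (adjusted p = 5.47e-05, but 0.126 with limma on FPKM) and 9.46 ± 0.45 at 42 h (adjusted p = 7.07e-96). The fitted line of FOXF2 rose by 9.50 ± 1.47 in log2 (adjusted p = 0.00199). FOXO6, the FOXO protein best known from brain, stood at 2.62 and 2.95 CPM at 0 h and at 14.9, 18.6, 31.5, 40.3 and 45.2 CPM later. For FOXO6 the log2 change was 2.41 ± 0.31 at 4 h (adjusted p = 1.28e-12) and 4.01 ± 0.31 at 42 h (adjusted p = 1.78e-35), and the line rose by 3.58 ± 0.90 (adjusted p = 0.0164). FOXI2, a placodal relative of FOXI3, was called at 4 h alone. FOXI2 had 0.93 and 0.64 CPM at 0 h, 3.48 CPM at 4 h and 0.56 to 0.94 CPM later, with a log2 change of 2.17 ± 0.46 at 4 h (adjusted p = 0.000119, but 0.251 in DESeq2), and it too passed the filter only through its high library.

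**Figure D3:**
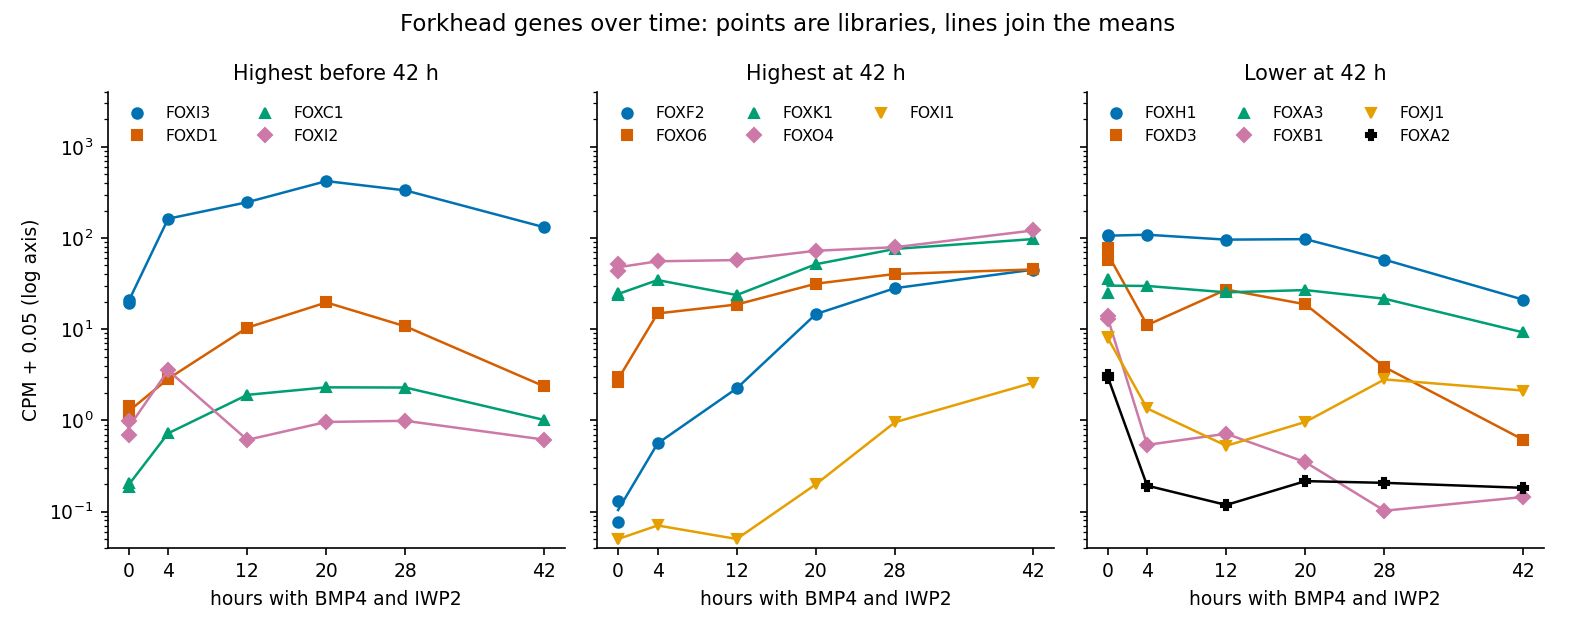
TMM-scaled CPM plus 0.05, on a log axis, against hours with BMP4 and IWP2 for 15 forkhead genes; points are libraries and lines join the means. FOXI3 is highest at 20 h (422 CPM), FOXF2 climbs to 45.0 CPM at 42 h, and FOXD3 goes from 57.0 and 77.5 CPM to 0.57 CPM.

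Of the pluripotency and early embryo group, FOXD3 and FOXH1 fell and FOXO1 was not called at any time. FOXD3 is a repressor needed to keep the epiblast and neural crest progenitors. It has a single exon at chr1:63322567-63325128 on the plus strand and overlaps FOXD3-AS1 on the other strand. Its level was 57.0 and 77.5 CPM at 0 h and then 11.1, 27.2, 18.7, 3.79 and 0.57 CPM at 4, 12, 20, 28 and 42 h. FOXD3 thus dipped at 4 h, stood 2.46 times higher at 12 h (2.23 to 2.72, counting error only) and was lowest at 42 h. The log2 change of FOXD3 was -2.60 ± 0.36 at 4 h (adjusted p = 5.58e-11), -1.31 ± 0.33 at 12 h (adjusted p = 0.00152, but 0.122 with limma on FPKM) and -6.89 ± 0.48 at 42 h (adjusted p = 1.74e-44). The neural crest marker SOX10 stayed at 1.74 to 4.23 CPM, and the sum of 6 neural crest markers lay between 20.8 and 73.9 CPM in the time series. Most of this sum at 0 h was ETS1, with a mean of 44.5 CPM. The sum was lowest at 42 h, while 4 of the 6 markers reached 1 CPM there, against 2 at 0 h. Whether reads of FOXD3 and FOXD3-AS1 were told apart by strand is not stated. FOXD3-AS1 stood at 24.8 and 33.9 CPM at 0 h, had no such dip, with 16.3 CPM at 4 h and 10.4 CPM at 12 h, and ended at 0.66 CPM.

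FOXH1 kept its level through 20 h and was lower at the end. It stood at 105 and 108 CPM at 0 h and at 109, 96.0, 97.3, 57.9 and 21.1 CPM at the later times. The log2 change of FOXH1 was -0.87 at 28 h, which was not called in the TMM-scaled fit but was with DESeq2 (adjusted p = 0.0324), with its size factors in edgeR (0.049) and with library totals (0.0315), and -2.33 ± 0.37 at 42 h (adjusted p = 4.64e-09). Its fitted line fell by 1.99 ± 0.43 in log2 (adjusted p = 0.00901), but without the 42 h library by 1.03 with adjusted p = 0.0623. Of 12 tested genes of the Nodal and FOXH1 pathway, 1 rose and 5 fell at 42 h, where 19.9% and 17.8% of all genes did, and the median log2 change was -0.23 against -0.008 over all genes. Those that fell were NODAL, its inhibitors LEFTY1 and LEFTY2, its coreceptor TDGF1 and SMAD3. LEFTY1 was lower already at 4 h, with 14.9 and 19.5 CPM at 0 h, 3.07 CPM at 4 h and 0.09 CPM at 42 h. TDGF1 had 603 and 561 CPM at 0 h, 511 CPM at 4 h and 13.6 CPM at 42 h. EOMES, of the same list, went the other way before 42 h, from a low mean of 0.25 CPM at 0 h. Its log2 change was 2.28, 3.29, 3.74, 2.82 and 0.37 at 4, 12, 20, 28 and 42 h.

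FOXB1 and FOXJ1 fell at the first time measured. FOXB1, a factor of the neural tube and hypothalamus, had 14.0 and 12.8 CPM at 0 h and 0.49, 0.66, 0.30, 0.05 and 0.09 CPM later, so that every later library lay far below both at 0 h. Its log2 change was -4.77 ± 0.52 at 4 h (adjusted p = 1.22e-17) and -7.12 ± 0.64 at 42 h (adjusted p = 2.6e-27), and FOXB1 passed the filter on low values only through the 0 h libraries, in which it was high. FOXJ1, the switch for motile cilia, had 7.90 and 8.15 CPM at 0 h and was lowest at 12 h. Later FOXJ1 levels were 1.3, 0.48, 0.91, 2.76 and 2.08 CPM at 4, 12, 20, 28 and 42 h. FOXJ1 thus came partly back, 5.80 times higher at 28 h than at 12 h (3.87 to 9.01, counting error only). The log2 change of FOXJ1 was -4.07 ± 0.52 at 12 h (adjusted p = 4.74e-13) and -1.95 ± 0.44 at 42 h (adjusted p = 6.22e-05). Only 7 of 20 genes of motile cilia listed with FOXJ1 were abundant enough to test. Of these, at 42 h CFAP45 and DNAH11 were higher and CCDC39 and RSPH4A lower. The median log2 change of the 7 was 0.01 at 12 h, where FOXJ1 was lowest, against -0.016 over all genes. At 42 h it was -0.33, against -0.008 over all genes. FOXL2, known from the ovary, had 2.7 and 3.02 CPM at 0 h, fell to 0.69 CPM at 4 h (log2 change -2.04 ± 0.49, adjusted p = 0.00115, but 0.0808 with limma on FPKM) and stood at 1.46, 4.38, 3.72 and 4.45 CPM at 12 to 42 h, with no later call.

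The endoderm factors were low or fell. FOXA2, the pioneer factor of definitive endoderm and floor plate, had 121 and 208 counts at 0 h, or 3.14 and 2.84 CPM. It then had 7, 4, 10, 9 and 7 counts at the 5 later times, or 0.07 to 0.17 CPM. FOXA2 did not reach the minimum of 1 CPM on average, and in the fit with no such minimum its log2 change was -4.43 ± 0.61 at 4 h (adjusted p = 1.25e-10) and -4.39 ± 0.61 at 42 h (adjusted p = 2.29e-11). The 6 other endoderm markers listed (SOX17, CER1, HHEX, CXCR4, GATA6 and APOA2) summed to 1.63 and 1.76 CPM at 0 h and 5.55 to 10.1 CPM later. FOXA3, an endoderm and liver factor, had 25 and 35.1 CPM at 0 h and 29.8, 25.3, 26.8, 21.6 and 9.19 CPM later. Only the last FOXA3 library lay far below the others (log2 change -1.71 ± 0.34, adjusted p = 3.63e-06). FOXA1 had at most 0.65 CPM.

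The make-up of the FOXO group, described here with no test, differed between the ends of the series. Of the FPKM of FOXO1, FOXO3, FOXO4 and FOXO6 together, FOXO1 held 48.8% and 42.8% at 0 h and 16.0% at 42 h, FOXO4 held 34.1% and 42.8% and then 54.9%, and FOXO6 2.38% and 2.56% and then 19.7%. FOXO4 stood at 43.1 and 52.4 CPM at 0 h and at 55.6, 57.3, 72.5, 79.3 and 121 CPM later. The 42 h library of FOXO4 was the highest, with a log2 change of 1.34 ± 0.32 (adjusted p = 0.000134). FOXO3 went down before it went up: it had 49.4 and 39.4 CPM at 0 h and then 24.2, 25.3, 35.4, 50.6 and 75.4 CPM. At 4 h the change of -0.88 for FOXO3 was not called (adjusted p = 0.144), and at 42 h that of 0.76 ± 0.32 was (adjusted p = 0.0426, but 0.075 in DESeq2). FOXO1 had 170 and 139 CPM at 0 h and 117 to 184 CPM later, with no call, and acts in pluripotent cells as well as in insulin signalling. FOXO3B, an expressed near-copy of FOXO3, had 37.9 and 32.8 CPM at 0 h and 37.5, 40, 34.9, 27.0 and 20.3 CPM later. It was called at 42 h alone (log2 change -0.80 ± 0.33, adjusted p = 0.0415, but 0.0536 in DESeq2). Of all 50-base stretches of the FOXO3 transcripts 35.6% are also in FOXO3B, so that estimated counts of the pair are uncertain.

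Genes around the FOXO proteins were counted at 42 h, where 19.9% of all genes rose and 17.8% fell. Of 14 regulators of FOXO, 6 rose (among them AKT1, IRS1, PDPK1, SGK1 and SGK3) and 1 fell (IRS2), with a median log2 change of 0.50 against -0.008 over all genes. SGK1, a kinase that like AKT keeps FOXO proteins in the cytoplasm, stood at 14.9 and 13.4 CPM at 0 h, 25.3, 66.2, 147 and 244 CPM at 4 to 28 h and 99.4 CPM at 42 h. Of 19 tested FOXO target genes, 1 rose and 1 fell at 4 h, and 9 rose and 4 fell at 42 h, with a median log2 change of 0.72. Among those that rose at 42 h, SESN3 went from 113 and 74.8 CPM to 653 CPM, CITED2 from 48.8 and 52.1 CPM to 704 CPM, and GADD45A from 3.16 and 4.85 CPM to 56.6 CPM. TXNIP, which is also induced by FOXO proteins, fell from 7.75 and 8.27 CPM to 2.89 CPM. IRS2 and INSR stand in both lists.

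The broadly expressed members moved by smaller factors. FOXK1, a repressor of autophagy genes, had 25 and 23.5 CPM at 0 h and 34.6, 23.7, 51.6, 76.0 and 97.5 CPM later. All FOXK1 libraries from 20 h on lay above both at 0 h, with a log2 change of 2.0 ± 0.31 at 42 h (adjusted p = 1.81e-09). FOXP1, a repressor with roles in heart, lung and blood, had 35.5 and 26.6 CPM at 0 h and 34.9, 59.4, 65.8, 69.8 and 56.5 CPM later. From 12 h on FOXP1 lay above both 0 h libraries, with a log2 change of 1.17 ± 0.32 at 28 h (adjusted p = 0.00168, but 0.0664 with limma on FPKM). FOXN2 had 34.6 and 28.0 CPM at 0 h and 23.6, 23.8, 17.3, 18.4 and 14.5 CPM later, each below both at 0 h (at 42 h log2 change -1.11 ± 0.33, adjusted p = 0.00288). FOXP4, a relative of FOXP1, had 57.5 and 49.1 CPM at 0 h and 63.0, 23.6, 44.5, 49.98 and 90.6 CPM later. It was low at 12 h (log2 change -1.17 ± 0.35, adjusted p = 0.0098, but 0.127 with limma on FPKM) and high at 42 h (log2 change 0.77 ± 0.32, adjusted p = 0.0447). FOXK2, a relative of FOXK1, had 124 and 132 CPM at 0 h and 143, 158, 189.8, 171 and 219 CPM later, and FOXJ2 had 19.7 and 14.1 CPM and then 16.6, 22.2, 26.4, 23.1 and 28.1 CPM. Both were called at 42 h, with log2 changes of 0.78 ± 0.33 (adjusted p = 0.0472) and 0.73 ± 0.30 (adjusted p = 0.0428). The 42 h calls of FOXJ2, FOXK2, FOXO3 and FOXP4 were lost with a minimum of 2.5 CPM and with scaling by library totals.

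FOXM1, FOXJ3, FOXN3, FOXO1 and FOXP3 were called at no time. FOXM1 had 189 and 191 CPM at 0 h and 195 to 247 CPM later, with log2 changes from 0.04 to 0.38. Of its 16 listed target genes 2, CDC25B and CENPA, rose at 42 h, where 19.9% of all genes did, with a median log2 change of 0.36 over the list. FOXN3, first named as a checkpoint suppressor, ranged from 181 CPM at 42 h to 422 CPM at 20 h and was called at 42 h with library totals (adjusted p = 0.0418), and FOXJ3 from 65.0 to 99.4 CPM, the latter at 0 h. FOXP3, the factor of regulatory T cells, had 1.76 and 1.28 CPM at 0 h and 1.55, 1.52, 1.39, 1.04 and 0.79 CPM later.

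Among the 21 members below 1 CPM on average, FOXI1 was at 0 counts in both 0 h libraries. FOXI1, known from inner ear and kidney cells that pump protons, had 1, 0, 9, 52 and 135 counts at 4, 12, 20, 28 and 42 h. At 42 h, with 2.55 CPM, FOXI1 was thus at least 32.8-fold and 62.1-fold higher than the 3-count limits of the first and the second 0 h library. FOXP2, known from speech and brain development, had 5 and 8 counts at 0 h and 4, 18, 49, 123 and 34 counts later, with 2.14 CPM at 28 h. In the fit with no minimum the log2 change of FOXP2 was 4.18 ± 0.53 at 28 h (adjusted p = 2.28e-13). FOXF1, the near relative of FOXF2, had 2 and 3 counts at 0 h and 7, 33, 59, 46 and 3 counts later, so that it was 17.3 times higher at 20 h than at 42 h (5.63 to 86.2, counting error only) while FOXF2 rose further. FOXB2 had 43 and 95 counts at 0 h and 26, 35, 15, 7 and 1 counts later, with a log2 change of -5.77 ± 0.90 at 42 h in the fit with no minimum (adjusted p = 3.49e-09). FOXD2 had 0 and 3 counts at 0 h and 14, 23, 59, 29 and 20 counts later.

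Further low members had from 0 to 74 counts in a library of the time series. FOXN4, a factor of retina and spinal cord, had 21 and 36 counts at 0 h and 59, 74, 54, 38 and 26 later. FOXE3, needed for the lens, had 13 and 29 counts and then 36, 23, 72, 41 and 51, and FOXE1, a thyroid factor, had 3 and 11 counts and then 4, 10, 21, 38 and 25. In the fit with no minimum FOXE3 was called at 20 h (log2 change 1.69 ± 0.48, adjusted p = 0.00664) and FOXE1 at 28 h (2.43 ± 0.65, adjusted p = 0.00247). FOXD4, which shares up to 44.3% of its 50-base stretches with the FOXD4L genes and is therefore uncertain, had 9 and 26 counts and then 26, 47, 49, 37 and 29. FOXA1 had 12 and 16 counts and then 15, 18, 39, 34 and 10. FOXS1 and FOXL1 had at most 6 counts, FOXO1B at most 5, and FOXL3, FOXN1, FOXR1 and FOXR2, at most 1.

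Several low members lie near another forkhead gene on the same chromosome. On chromosome 6, FOXQ1, FOXF2 and FOXC1 follow each other on the plus strand with gaps of 74.8 and 214 kb. FOXQ1 had 1 and 10 counts at 0 h and 13, 34, 39, 32 and 26 counts later, and in the fit with no minimum its log2 change was 2.75 ± 0.63 at 20 h (adjusted p = 0.000267). FOXQ1 was highest at 20 h, as was FOXC1 (2.25 CPM), whereas FOXF2 was highest at 42 h. The RNA FOXF2-DT, made from the other side of the FOXF2 start, had 0 and 0.01 CPM at 0 h and 7.0 CPM at 42 h. On chromosome 16, FOXF1, FOXC2 and FOXL1 lie 51.4 and 6.64 kb apart. FOXC2 had 7 and 10 counts at 0 h and 1, 6, 20, 9 and 7 later, and FOXL1 had 6 at most, against 59 for FOXF1. FOXE3 and FOXD2 lie 20.0 kb apart on chromosome 1 and were both highest in the time series at 20 h, at 1.19 and 0.98 CPM.

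Whether these changes depended on the strength of BMP signalling was asked with the LDN doses at 5 h. FOXD1, FOXI3, FOXO6 and FOXO4 were lower with more LDN, and FOXJ1, FOXB1, FOXD3, FOXP4, FOXO3 and FOXH1 were higher. Of the 23 tested in the 5 libraries with BMP4, 6 rose and 4 fell with LDN, where 9.59% and 10.4% of all 14907 genes did. The coefficient is the fitted log2 change from 0 to 300 nM on a log scale of dose, and its median was 0.01 over the 23 and -0.003 over all genes. No dose had a replicate, so that the error is the scatter about the line, and the dose stands in for SMAD4 levels measured by imaging, which were not used here. Over the same doses the sum of the 9 amnion markers dropped to 36.4 CPM at the highest dose, against 273 CPM without LDN, and that of the 7 pluripotency markers went from 5157 to 6452 CPM.

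FOXI3 and FOXD1 fell at each step of dose. FOXI3 stood at 101, 83.1, 63.0, 43.2 and 24.5 CPM at 0, 10, 30, 100 and 300 nM LDN and at 14.4 CPM untreated. Every step lowered FOXI3, and the fitted change was -1.99 ± 0.08 in log2 (adjusted p = 9.85e-09). FOXD1 stood at 2.67, 1.87, 1.07, 0.42 and 0.18 CPM and at 0.60 CPM untreated. The fitted change of FOXD1 was -3.84 ± 0.38 (adjusted p = 1.18e-05), and its level at 300 nM rests on 6 counts against 78 without LDN and 9 untreated. FOXD1 passed the filter on low values at 5 h only through the 3 lowest doses. FOXO6 went from 5.20 and 4.90 CPM at 0 and 10 nM to 2.78, 2.49 and 1.59 CPM at the higher doses, with 1.94 CPM untreated (fitted change -1.76 ± 0.25, adjusted p = 0.000256). FOXO4 moved far less, from 56.4 to 47.5 CPM (fitted change -0.28 ± 0.06, adjusted p = 0.00379), and its untreated level was 56.4 CPM. This FOXO4 call was lost with limma on FPKM (adjusted p = 0.1) and where the untreated library was placed at the same point as 300 nM (adjusted p = 0.375). FOXC1 and FOXF2 were too low for the test at 5 h. FOXC1 had 31, 16, 6, 8 and 1 counts with rising LDN and 2 untreated, and FOXF2 had 0.65, 0.17, 0.34, 0.03 and 0.06 CPM, with 0 untreated. In the fit with no minimum their changes were -3.89 ± 0.78 for FOXC1 (adjusted p = 0.000256) and -3.60 ± 0.99 for FOXF2 (adjusted p = 0.0104).

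FOXD3 rose with LDN and passed the untreated level. FOXD3 stood at 25.8, 40.6, 50.8, 59.8 and 62.4 CPM from 0 to 300 nM and at 37.2 CPM untreated, so that the 4 libraries with LDN lay above the untreated one and the library without LDN below it. The fitted change of FOXD3 was 1.11 ± 0.16 (adjusted p = 0.000352), and it was not called (adjusted p = 0.225) where the untreated library was placed at the same point as 300 nM. FOXD3-AS1 also rose, from 37.4 CPM to 60.7 CPM at 300 nM, with 40.0 CPM untreated. FOXJ1 stood at 0.62, 0.73, 0.86, 1.95 and 2.22 CPM and FOXB1 at 0.92, 1.37, 1.10, 1.92 and 2.52 CPM, both lower at every dose than their untreated levels of 7.30 and 6.09 CPM. FOXJ1 passed the filter on low values there only through 100 and 300 nM. The fitted change was 2.07 ± 0.34 for FOXJ1 (adjusted p = 0.000944) and 1.38 ± 0.31 for FOXB1 (adjusted p = 0.00696), the latter lost without the 300 nM library (adjusted p = 0.13) and with limma on FPKM (adjusted p = 0.0712). FOXP4 rose from 13.6 to 23.0 CPM (0.71 ± 0.10, adjusted p = 0.000401) and FOXO3 from 22.4 to 34.7 CPM (0.61 ± 0.08, adjusted p = 0.000135), with 42.7 and 33.8 CPM untreated, and both calls were lost with limma on FPKM (adjusted p = 0.0576 for FOXP4 and 0.0536 for FOXO3). FOXH1 had 56.3 CPM without LDN, 61.0 to 69.1 CPM with it and 82.3 CPM untreated, and its fitted change of 0.23 ± 0.08 (adjusted p = 0.0496) was lost in DESeq2 (adjusted p = 0.0573) and without the library at 0, 10, 100 or 300 nM (adjusted p = 0.369, 0.1, 0.102 and 0.0523).

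The other members tested at 5 h had fitted changes between -0.51 ± 0.32 (FOXP3) and 0.37 ± 0.29 (FOXL2) and were not called. The nearest to a call was FOXP1, with 23.7, 24.8, 23.5, 22.3 and 19.98 CPM from 0 to 300 nM and 22.1 CPM untreated. Its fitted change of -0.27 ± 0.09 had adjusted p = 0.0503 and was called with library totals (adjusted p = 0.0396) and with a minimum of 2.5 CPM (adjusted p = 0.0431). FOXM1 lay between 154 and 167 CPM over the doses, with 184 CPM untreated, and FOXK2 between 116 and 125 CPM, with 113 CPM untreated. FOXK1, which rose late in the time series, had 7.53 to 10.1 CPM over the doses and 10.6 CPM untreated (fitted change 0.32 ± 0.13, adjusted p = 0.117). FOXI1, which appeared late in the time series, had 0 counts in all 6 libraries at 5 h, which allows up to 0.0874 CPM in the deepest library and 0.201 CPM in the shallowest.

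Genes of the same pathways were counted along the LDN doses as well, where 9.59% of all genes rose and 10.4% fell, with a median of -0.003. Of 12 tested genes of the Nodal and FOXH1 pathway 4 rose with LDN (DRAP1, LEFTY1, SMAD3 and TDGF1) and 1 fell (SMAD2), with a median fitted change of 0.17. LEFTY1 stood at 1.57, 1.72, 3.89, 6.65 and 7.62 CPM from 0 to 300 nM and at 14.7 CPM untreated, so that it rose at each step without reaching the untreated level. Of the 14 regulators of FOXO, INSR rose and PIK3CA and SGK1 fell. SGK1 stood at 46.5, 32.3, 21.1, 14.9 and 9.81 CPM and at 14.5 CPM untreated, lower at each step. Of 18 tested FOXO target genes 5 rose (CDKN1B, INSR, SESN2, SOD2 and TRIB1) and 2 fell (CCNG2 and PIK3IP1), with a median of 0.10. Of the 16 FOXM1 target genes CDC25B, CKS1B and PLK1 rose and KIF20A fell, with a median of 0.02.

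**Figure D4:**
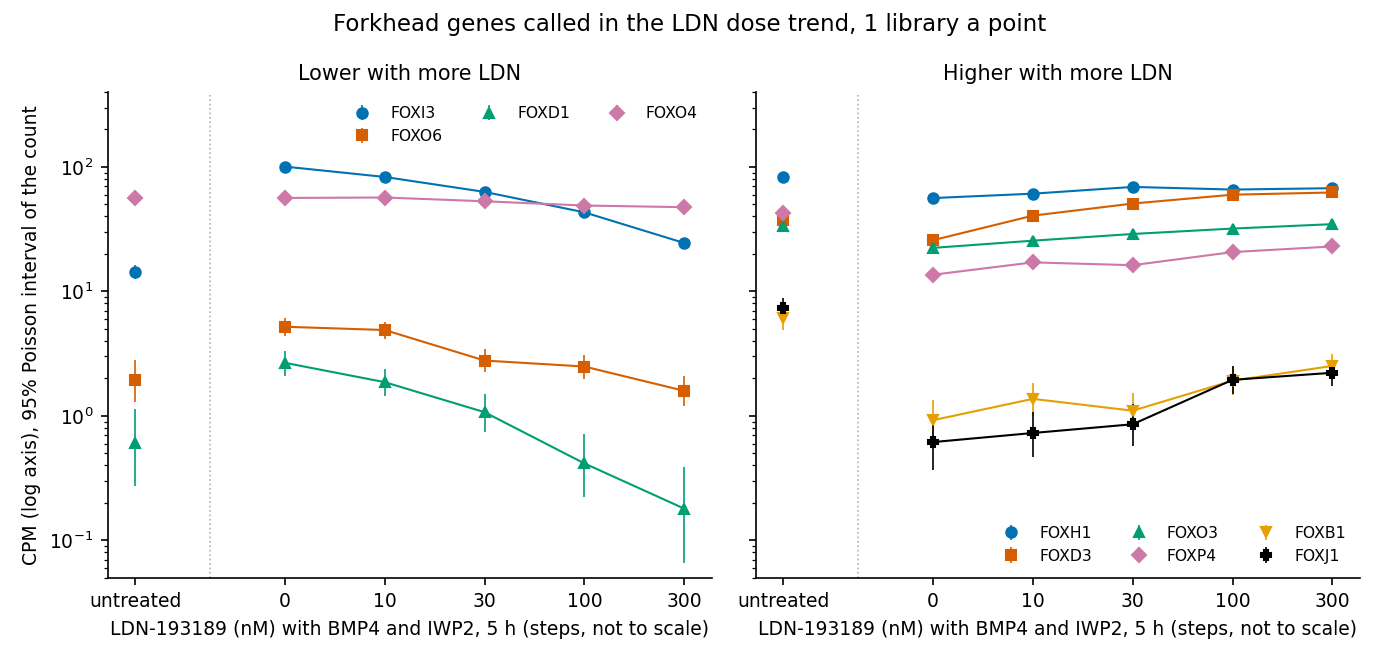
TMM-scaled CPM on a log axis at 5 h for the 10 forkhead genes called in the LDN dose trend, 1 library a point, with the untreated library at the left of each panel; bars are exact 95% Poisson intervals of the counts. FOXI3 falls from 101 to 24.5 CPM and FOXD1 from 2.67 to 0.18 CPM, while FOXJ1 and FOXB1 stay under their untreated levels of 7.30 and 6.09 CPM at every dose.

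The DNA before the start of FOXI3, FOXD1 and FOXD3 is shown because these genes responded to LDN in opposite directions. These are the 250 bases upstream of the RefSeq start on GRCh38.p14, 5′ to 3′ on the strand of the gene. They lie at chr2:88452694-88452943 on the minus strand for FOXI3, chr5:73448778-73449027 on the minus strand for FOXD1 and chr1:63322317-63322566 on the plus strand for FOXD3. Capitals mark GGCGCC, a GC-rich element bound by SMAD proteins.
FOXI3: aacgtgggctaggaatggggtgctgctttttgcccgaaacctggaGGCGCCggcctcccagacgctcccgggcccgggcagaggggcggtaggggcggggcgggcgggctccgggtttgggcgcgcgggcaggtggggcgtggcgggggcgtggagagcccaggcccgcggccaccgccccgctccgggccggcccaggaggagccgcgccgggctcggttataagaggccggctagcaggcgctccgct
FOXD1: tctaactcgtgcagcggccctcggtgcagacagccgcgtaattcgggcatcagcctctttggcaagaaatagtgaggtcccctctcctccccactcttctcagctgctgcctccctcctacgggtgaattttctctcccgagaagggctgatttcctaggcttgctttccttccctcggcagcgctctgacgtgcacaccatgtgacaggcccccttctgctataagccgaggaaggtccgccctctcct
FOXD3: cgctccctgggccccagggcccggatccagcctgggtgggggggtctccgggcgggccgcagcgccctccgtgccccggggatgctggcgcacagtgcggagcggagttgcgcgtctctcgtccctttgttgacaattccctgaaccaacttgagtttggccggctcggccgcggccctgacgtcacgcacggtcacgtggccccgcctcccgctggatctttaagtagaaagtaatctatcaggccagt
The FOXI3 window holds GGCGCC once, 205 bases before the start, and the windows of FOXD1 and FOXD3 do not hold it. Over the 35 members with an entry, 10 (28.6%) hold GGCGCC, against 16.4% of all 35116 RefSeq windows of this length. Among members with an entry that were called along the LDN doses, 1 of 4 that rose (FOXO3) and 1 of 4 that fell (FOXI3) hold it. The members' windows are richer in GC, with a median of 67.6% against 58.0%, and in CpG, with a median of 24 against 11, and the share of windows with GGCGCC was not adjusted for this. The palindromic SMAD element GTCTAGAC is in 0 of the 35 and in 0.182% of all windows. The forkhead motif TGTTTAC is in 0 of the 35 and in 2.98% of all, and its variant TGTTTGC in 2 (5.71%) and in 3.23%. All motifs were searched on both strands, none overlaps another in its letters as listed, and a match is a description of letters, not a bound site.

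The untreated library, which lacks BMP4 and IWP2 alike, gave a second reference at 5 h, and the effects of the 2 agents cannot be told apart. The description of the untreated cells names no RI, so an effect of RI cannot be told apart from these either. Without LDN, FOXI3, FOXD1, FOXC1, FOXF2 and FOXO6 were higher than untreated and FOXA2, FOXJ1, FOXB1, FOXP4 and FOXL2 lower. With 1 library each there was no test. Of 33 members with at least 10 counts in the pair of libraries, 10 were at least 2-fold higher and 6 at least 2-fold lower, against 10% and 3.98% of all 18785 genes. FOXI3 was 6.97-fold higher and FOXD1 4.17-fold higher. FOXF2 had 19 counts against 0 untreated and was at least 3.23-fold higher. FOXA2 had 1 count without LDN and 62 untreated, and 0, 6, 3 and 6 counts at the 4 doses of LDN. At 300 nM FOXA2 was 23.1-fold lower than untreated (10.0 to 65.3, counting error only).

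How far 300 nM LDN brought each gene back was then set beside this, in a fit of all 6 libraries added after these values were seen. It assumes that the untreated library varies like the others about the dose line. The fitted level at 0 nM differed from untreated for 4 members that were higher and 10 that were lower, of 23 (22.7% and 21.8% of 14877 genes). At 300 nM 2 were higher and 10 lower (15.8% and 15.7%). FOXI3 remained above untreated, by 2.89 ± 0.12 in log2 at 0 nM and by 0.89 ± 0.13 at 300 nM (adjusted p = 3.17e-09 and 0.000314). FOXD3 was not called at 0 nM and was above untreated by 0.92 ± 0.19 at 300 nM (adjusted p = 0.00293). FOXJ1, FOXB1, FOXL2 and FOXP4 were below untreated at both ends. FOXJ1 went from -3.66 ± 0.30 to -1.59 ± 0.28, FOXB1 from -2.67 ± 0.28 to -1.30 ± 0.27, FOXL2 from -1.37 ± 0.28 to -0.99 ± 0.28 and FOXP4 from -1.58 ± 0.10 to -0.88 ± 0.10, with adjusted p at 300 nM of 0.000945, 0.00329, 0.0185 and 5.16e-05. FOXO3 and FOXO6 were called at 0 nM (-0.53 ± 0.09 and 1.49 ± 0.29) and not at 300 nM. FOXJ3 was below untreated by a like amount at both ends, -0.49 ± 0.05 and -0.46 ± 0.05.

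**Figure D5:**
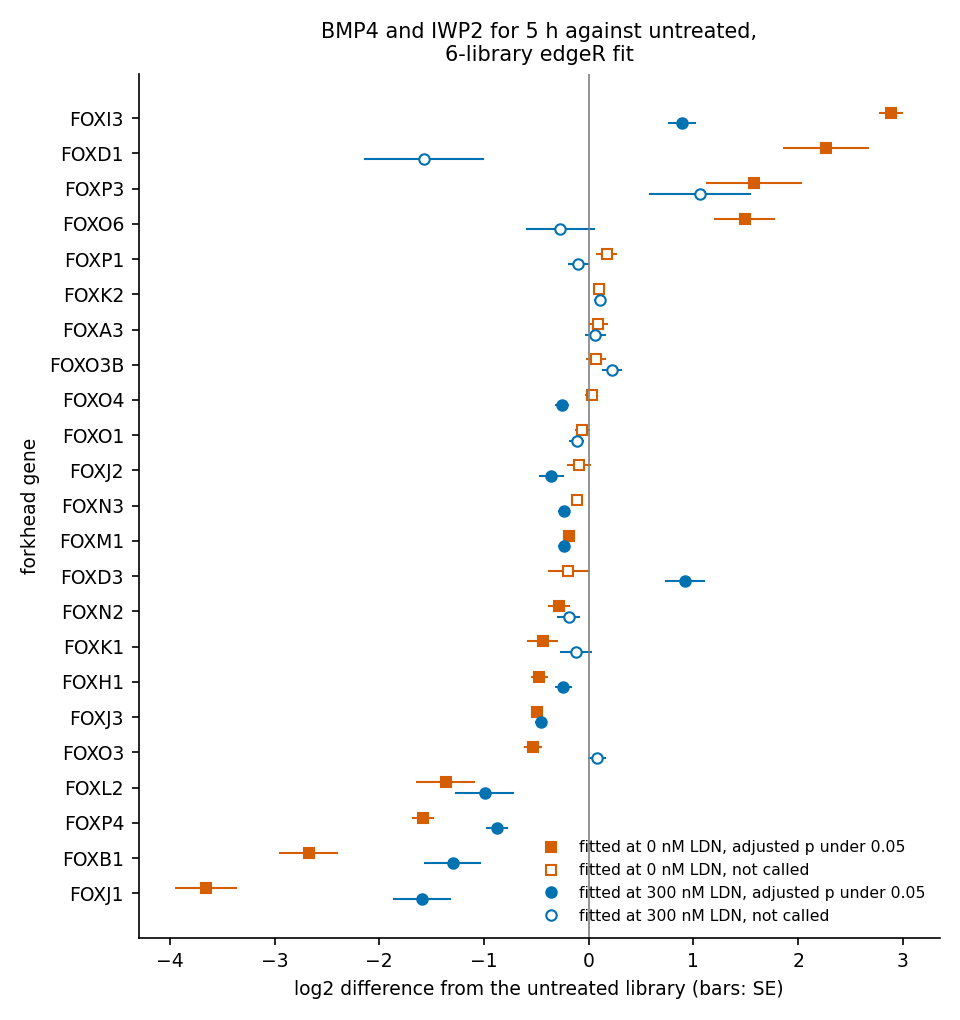
Fitted log2 difference from the untreated library at 0 nM LDN (squares) and 300 nM LDN (circles) for the 23 tested forkhead genes, with SE bars, from 1 edgeR fit of the 6 dose-response libraries; filled symbols have an adjusted p under 0.05. FOXI3 goes from 2.89 to 0.89 and FOXJ1 from -3.66 to -1.59, while FOXD3 ends at 0.92 above untreated.

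The early changes were set side by side between the experiments, which share no library. The 10 members called at 4 h all had the same sign at 5 h without LDN against untreated, and 8 of them differed there by at least 2-fold. FOXI3 had log2 differences of 3.01 and 2.80, FOXF2 of 3.0 and 3.81, FOXJ1 of -2.62 and -3.46 and FOXB1 of -4.77 and -2.66. The exceptions to 2-fold were FOXD3, with -2.60 and -0.53, and FOXI2, with 2.17 and 0.36. FOXI2 had 23 counts without LDN and 9 untreated, and the interval of its ratio was 0.582 to 3.21 (counting error only). FOXP4 differed the other way: its log2 difference was 0.24 at 4 h and -1.65 at 5 h. Over all 26 tested members, 17 had the same sign. The matching shares over all genes were not counted, so these counts are no result particular to the family. The times, kits and library types differ between the experiments, and the part of this was not tested.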

How the data were processed

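Per the labels and the study's methods, reads were trimmed with Cutadapt, aligned to GRCh38 with STAR 2.7.8a and quantified with RSEM 1.3.3. The Ensembl release and the strand setting are not given in the sources used here. The authors deposited gene tables of estimated counts as whole numbers and of FPKM, 1 pair for each experiment. No column held comparisons of the authors. The 5 non-human features (0.00129% to 0.00301% of the summed counts) were left out. Libraries were grouped by their labels.

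Counts were scaled by TMM and tested with the quasi-likelihood test of edgeR 4.0.16 (R 4.3.3) over all genes whose mean reached 1 CPM, with Benjamini-Hochberg adjusted p under 0.05. The designs were a line in hours over the 7 time-series libraries, each time against 0 h, a line in log10(1 + LDN / 10 nM) over the 5 libraries with BMP4, and, added after the values were seen, that line with a term for the untreated library. For the untreated comparison, a 2-fold difference with at least 10 counts over both libraries was used. Log2 changes of tests are edgeR's fitted values. Alternatives used DESeq2 1.42.0, limma 3.58.1 on log2(FPKM + 0.1), other scalings and filters, and left out each library in turn. Scripts were tested on simulated data.

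Members were accounted for by name, with values in each time-series library for those called among the tested genes, and counts or a range for the rest, except 1 low member that is not reported here. Members, roles and gene lists were chosen with earlier results of these data known, so that they are not independent support. Upstream sequences came from RefSeq (GRCh38.p14), where 35 of the 47 symbols matched, and gene positions from GENCODE 44. No protein sequences were used here.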

Additional observations from a re-analysis of the deposited data

How the results depend on the processing

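No called change turned its sign under any alternative that was run. Counts of forkhead genes called moved by over 1.5 times under these settings. The line in time called 7 that rose, against 4 with library totals, 4 with limma on FPKM and 12 with a quadratic in hours. At 4 h 6 rose, against 3 with DESeq2 and 2 with limma, and at 12 h 4 fell, against 2 with limma. At 20 h 7 rose, against 14 with no filter on low counts, and at 28 h 7 rose and 3 fell, against 14 and 5 with no filter, and 5 fell with library totals. The fit with no filter tested 39033 genes against 15976 and includes members below 1 CPM, so its counts come from a larger set. At 42 h 12 rose, against 6 with library totals, 7 with a minimum of 2.5 CPM and 6 with limma. In the LDN line 6 rose, against 2 with limma. Against untreated 10 were higher and 6 lower by 2-fold, and the fit of 6 libraries, added after the data were seen, gave 4 and 10 at 0 nM and 2 and 10 at 300 nM, by a test and not by fold. The cause of these moves was not tested beyond the numbers of genes that each filter admits.

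Leaving out each library in turn gave 5 to 8 that rose and 4 to 8 that fell for the line in time, and 4 to 6 and 4 to 6 for the LDN line. Without the 42 h library the lines of FOXA3, FOXH1, FOXJ2, FOXK2 and FOXO3B were no longer called (adjusted p = 0.194, 0.0623, 0.101, 0.073 and 0.332) and those of FOXI3, FOXC1 and FOXD1 were (adjusted p = 0.0461, 0.0219 and 0.0126). The line of FOXP1 was lost without either 0 h library, and without the 4, 20 or 28 h library (adjusted p = 0.0585 to 0.117). That of FOXJ2 was also lost without the second 0 h, the 4, the 12 or the 28 h library (adjusted p = 0.0607, 0.0838, 0.0507 and 0.0517), and that of FOXO3B without the first 0 h, the 4 or the 28 h library (adjusted p = 0.0592, 0.0639 and 0.0787). The lines of FOXO1 and FOXP3 were called without the second 0 h library (adjusted p = 0.0465 and 0.0254) and that of FOXO3 without the first (adjusted p = 0.0457). Library totals moved the median of all genes at 42 h by -0.243 in log2, against -0.007 with TMM. No paired analysis was possible because the groups share no replicate numbers beyond the first, and only 0 h has a second library. Without either 0 h library no test against 0 h can be made, since no residual degrees of freedom remain. Each later time, each dose and the untreated condition have 1 library. An interval given for a difference between 2 of these covers counting error only, and not the spread between cultures or library preparations.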
